A study of Mus musculus with 12 samples.

Results

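Naive CD8+ T cells that carry Sca-1 on their surface were compared with naive CD8+ T cells that lack it, in 4 of the 12 arrays of the series. The members are every array of naive cells: Sca1p AID KO and Sca1p uMT, set against Sca1m AID KO and Sca1m uMT and paired by genotype. Sca1p and Sca1m are read here as the Sca-1 positive and Sca-1 negative sort fractions. The other 8 arrays hold total CD8+ T cells of wild-type (WT), AID KO and uMT mice. They enter the choice of probes and the estimate of spread, and their levels of a few genes are given near the end.

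All cells came from female C57BL/6 mice of unstated age, and the naive cells from peripheral lymph nodes (PLN). The Sca1p AID KO and Sca1m AID KO cells came from mice labelled AID KO, and the genotype is given here as labelled. The Sca1p uMT and Sca1m uMT cells came from uMT mice, in which a disrupted mu heavy chain gene stops B cells from maturing. No Sca-1 fraction of WT mice is among the arrays, so both fractions of each pair come from mice of a mutant genotype. Naive was defined by low CD44, and cells were enriched with magnetic beads and then sorted by flow cytometry. Each fraction of each genotype is 1 array. The labels do not tie arrays to animals or pools, and the submitters state that there were no replicates, so a p-value here sets a difference against a spread that comes largely from the total-cell arrays and may be technical.

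Sca-1 is a lipid-anchored surface protein of the Ly6 family, whose genes lie side by side in a cluster on mouse chromosome 15. It is best known as a marker of mouse blood stem cells, and in T cells it is known to be induced by interferons and to be carried by activated and memory cells. Naive CD8+ T cells are not uniform: they differ in how strongly they have been tuned by self-peptide and cytokines before any infection, and Ly6 proteins are among the surface markers that vary between them.

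Levels are log2 processed intensities minus the 75th percentile of the array, so 0 is the brightness of the spot at that percentile. Well above background were 52.3% and 52.6% of the spots on the Sca1p arrays and 51.6% and 53.1% on the Sca1m arrays. The intensity at that percentile was 498.4 and 609.4 on the Sca1p arrays and 582.3 and 598.2 on the Sca1m arrays. No spot was saturated. The 4 naive arrays share a slide, and by the numbering in the scan headers both Sca1p arrays stood in its column 1 and both Sca1m arrays in its column 2, so the sort fraction and the position on the slide cannot be told apart. A difference in a bulk sample may come from fewer cells of a type or from less RNA per cell, and these cannot be told apart.

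The sort marker followed the labels. Ly6a, which encodes Sca-1, stood at 3.87 in Sca1p AID KO and 3.40 in Sca1p uMT, against 0.03 in Sca1m AID KO and -0.10 in Sca1m uMT. That is a 12.7-fold difference, given as a description because the cells were sorted on this protein. The Sca1m arrays were not at background for Ly6a, since its probe was well above background on all 4 arrays. The cells also carried the identity they were sorted for. Cd8a, a chain of the CD8 coreceptor, lay at 4.83 and 4.90 in Sca1p and at 4.68 and 4.88 in Sca1m, and Cd3e, a chain of the T cell receptor complex, at 6.67 and 6.58 in Sca1p and 6.50 and 6.66 in Sca1m. Of 17 tested CD8 T cell identity genes, all 17 were well above background on all 4 arrays, and the widest difference between the fractions was 0.26.

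The promoter windows of the genes that carry the comparison are shown first, because Ly6c1 and Ly6c2 were both higher beside Ly6a and Cxcr3 was the brightest gene past the threshold. Each window covers the annotated start and the bases before it, read from RefSeq in build GRCm38.p6, on the minus strand. Capitals mark a run of 20 bases found in both Ly6c windows.
Ly6c1 at chr15:75048788-75049087: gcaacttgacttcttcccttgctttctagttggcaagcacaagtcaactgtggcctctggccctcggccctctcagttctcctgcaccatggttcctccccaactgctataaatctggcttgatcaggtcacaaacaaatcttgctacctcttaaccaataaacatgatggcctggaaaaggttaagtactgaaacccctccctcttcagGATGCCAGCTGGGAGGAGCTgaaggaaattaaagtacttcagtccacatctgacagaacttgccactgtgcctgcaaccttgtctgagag
Ly6c2 at chr15:75111922-75112221: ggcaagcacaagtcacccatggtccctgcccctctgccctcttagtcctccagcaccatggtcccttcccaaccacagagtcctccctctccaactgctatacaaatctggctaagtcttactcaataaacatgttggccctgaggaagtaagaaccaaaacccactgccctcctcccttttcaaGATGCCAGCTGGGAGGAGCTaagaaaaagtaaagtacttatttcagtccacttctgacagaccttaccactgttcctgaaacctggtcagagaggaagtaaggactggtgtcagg
Cxcr3 at chrX:101734098-101734397: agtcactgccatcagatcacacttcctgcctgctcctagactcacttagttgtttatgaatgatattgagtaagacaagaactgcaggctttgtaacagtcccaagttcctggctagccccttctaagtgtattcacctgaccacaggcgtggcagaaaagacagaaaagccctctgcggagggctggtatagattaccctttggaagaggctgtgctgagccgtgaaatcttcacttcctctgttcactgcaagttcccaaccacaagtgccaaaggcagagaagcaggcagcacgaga
RefSeq holds 2 windows for each Ly6c gene, and the most alike of the 4 pairings is shown, identical in 63.6% of 335 aligned columns. The other pairings were identical in 45.1% to 51.2%. Both strands were searched for a T-box sequence (GGTGTGA), an interferon-stimulated response element (GAAA, any 2 bases, GAAA) and an interferon-gamma activated site (TTC, any 3 bases, GAA). None of the 3 letter strings is in the windows shown, and the T-box string is in a further Ly6c1 window at chr15:75048614-75048913. Of all 32851 RefSeq promoter windows of this length, 3.98% held the T-box string, 3.44% the response element and 8.30% the activated site. No window for Ly6a is in the table used.

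Few genes separated the fractions. Of 25599 features tested with limma (13828 named genes, the others probes without a name here), 4 passed an adjusted p of 0.05, which is 0.0156%: 3 rose in Sca1p (0.0117%) and 1 fell (0.00391%). At an unadjusted p of 0.05, 2151 features passed (8.4%), and the next smallest adjusted p was 0.0724. Values after ± are standard errors of that fit.

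Cxcr3, the receptor through which T cells follow the interferon-induced chemokines CXCL9 and CXCL10, rose in Sca1p. It stood at 1.87 and 1.70 in Sca1p AID KO and Sca1p uMT, against -0.39 and -0.31 in the Sca1m arrays of the same genotypes. The gap between the fractions was about 4.39-fold (2.13 ± 0.11, adjusted p = 0.0201). Its Sca1p minus Sca1m difference was 2.26 in the AID KO pair and 2.01 in the uMT pair, and the test of uMT against AID KO gave -0.25 ± 0.21 (adjusted p = 0.795). The call rests on the spread pooled over the series: without any 1 of the 8 total-cell arrays the adjusted p was 0.0829 to 0.127 at the same 2.13.

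The other calls were of dim probes. Cd163l1, a scavenger receptor gene known in mice from gamma delta T cells, stood at -3.87 and -4.37 in Sca1p and was not well above background in Sca1m, where it measured -6.67 and -6.99. It was at least 1.45-fold higher in Sca1p (adjusted p = 0.0333). Chst11, which encodes a chondroitin sulfotransferase, stood at -3.82 and -3.88 in Sca1p and, not well above background, at -5.93 and -6.52 in Sca1m. It was at least 1.74-fold higher (adjusted p = 0.0333), and a second Chst11 probe was higher by 0.43 in the AID KO pair and 0.82 in the uMT pair. Such a bound sets the bright fraction's mean against the lowest signal called well above background on the arrays of the dim fraction. With background correction by normexp the differences were 0.66 for Cd163l1 (adjusted p = 0.525) and 0.58 for Chst11 (adjusted p = 0.353). The single feature that fell, probe A_52_P1131862 with no gene name here, was not well above background in Sca1p at -6.42 and -6.93 and stood at -3.30 and -4.09 in Sca1m, at least 1.88-fold lower in Sca1p (adjusted p = 0.0201).

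The genotype pairs were then read as a repeat of each other. In both pairs, 182 features (0.711%) differed by at least 1 log2 unit in the same direction, 127 higher (0.496%) and 55 lower (0.215%) in Sca1p. Another 147 features (0.574%) differed by as much with opposite signs. The balance of higher and lower features depends on the scaling, since quantile normalization gave 100 higher, 84 lower and 168 opposite. Of the 182, 135 were well above background on neither array of at least 1 fraction. Among the 20723 features well above background on all 4 arrays, 20 were higher in both pairs (0.0965%), 7 lower (0.0338%) and 17 opposite (0.082%). Genes named below are among these brighter ones unless the text says otherwise, but counts and medians of gene lists take every tested member, dim ones included. Well above background on all 4 arrays were 27 of 38 effector and memory genes and 19 of 23 activation and inhibitory receptors. The same held for 20 of 26 chemokine and trafficking receptors and 23 of 32 proliferation genes. Across the 20723 features the differences in the 2 pairs were not aligned (Pearson's r = -0.08, a description, since all points share the 4 arrays), with a standard deviation of 0.37 in the AID KO pair and 0.33 in the uMT pair.

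**Figure D1:**
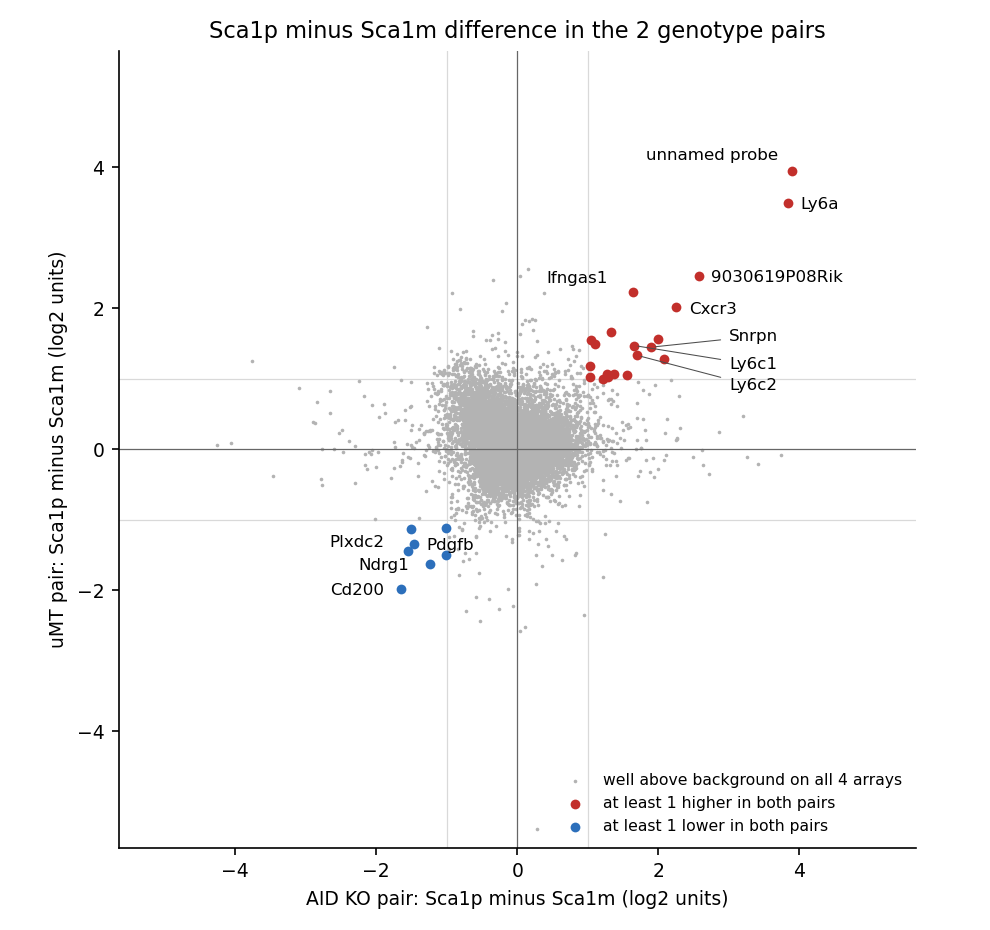
Each point is 1 of 20723 features well above background on all 4 naive arrays, with its Sca1p minus Sca1m difference (log2 units) in the AID KO pair on the horizontal axis and in the uMT pair on the vertical axis. Grey lines mark 1 log2 unit; 20 features (red) are at least that much higher in both pairs and 7 (blue) lower, while the mass of points shows no common direction.

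The 20 features higher in both pairs include 14 named genes, and 5 of the 7 lower ones are named. A feature with no gene name here, probe A_55_P2095311, had the widest gap, at -0.21 and -0.58 in Sca1p against -4.10 and -4.53 in Sca1m (3.92 ± 0.38, adjusted p = 0.0895). None of these genes except Cxcr3 passed the adjusted threshold.

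Of 15 tested members of the Ly6 family list, 8 were higher (53.3%) and 3 lower (20%) in Sca1p in both pairs. Over all features these shares were 25.7% and 24.5%. The list's medians were 0.51 in the AID KO pair and 0.01 in the uMT pair. Counts and medians include Ly6a, whose direction the sort fixed. Ly6c1 and Ly6c2 encode Ly6C, a surface marker of memory CD8+ T cells and monocytes. Ly6c1 stood at 6.33 in Sca1p AID KO and 5.97 in Sca1p uMT, against 4.68 in Sca1m AID KO and 4.50 in Sca1m uMT. Its Sca1p values lay above its Sca1m values in both genotypes, by 2.95-fold (1.56 ± 0.16, adjusted p = 0.0899), and a second probe was higher by 1.59 in the AID KO pair and by a little less in the uMT pair. Ly6c2 stood at 6.46 and 6.07 in Sca1p and at 4.76 and 4.74 in Sca1m (1.51 ± 0.17, adjusted p = 0.0899). The transcripts of the 2 genes are close paralogs, so their probes may share signal and are not independent.

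The transcribed pseudogene 9030619P08Rik, which lies 14 annotated genes beyond Ly6a, stood at 0.83 and 0.29 in Sca1p and at -1.74 and -2.17 in Sca1m, a 5.72-fold gap (2.52 ± 0.29, adjusted p = 0.0899). Whether its probe also reads transcripts of a Ly6 gene was not tested. Ly6e, a Ly6 protein known for effects on virus entry, was bright in all arrays, at 5.68 and 5.57 in Sca1p and 5.17 and 5.25 in Sca1m (0.41 ± 0.11, adjusted p = 0.389). Ly6f was dimmer and more uneven, at -3.02 and -3.22 in Sca1p and -6.18 and -4.46 in Sca1m (adjusted p = 0.417). On Sca1m AID KO it was not well above background.

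Of 30 annotated genes from Ly6k to Ly6l, 10 were tested. Beside Ly6a, whose direction the sort fixed, 6 of 9 were higher in Sca1p in both pairs, where 25.7% of all features were, and 4 of these by at least 1 log2 unit. The 6 include the paralogs Ly6c1 and Ly6c2, Ly6f, which was not well above background on Sca1m AID KO, and Ly6i. Ly6i was not well above background in Sca1m and differed by 0.72 in the AID KO pair and 0.01 in the uMT pair. Ly6k and Gml2, which stand at the far end of the cluster, were higher in the AID KO pair and lower in the uMT pair. The non-coding gene Gm28068, which lies between Ly6e and Ly6i, differed by -0.76 in the AID KO pair and 0.41 in the uMT pair. The other 20 genes of the cluster had no probe past the filter.

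**Figure D2:**
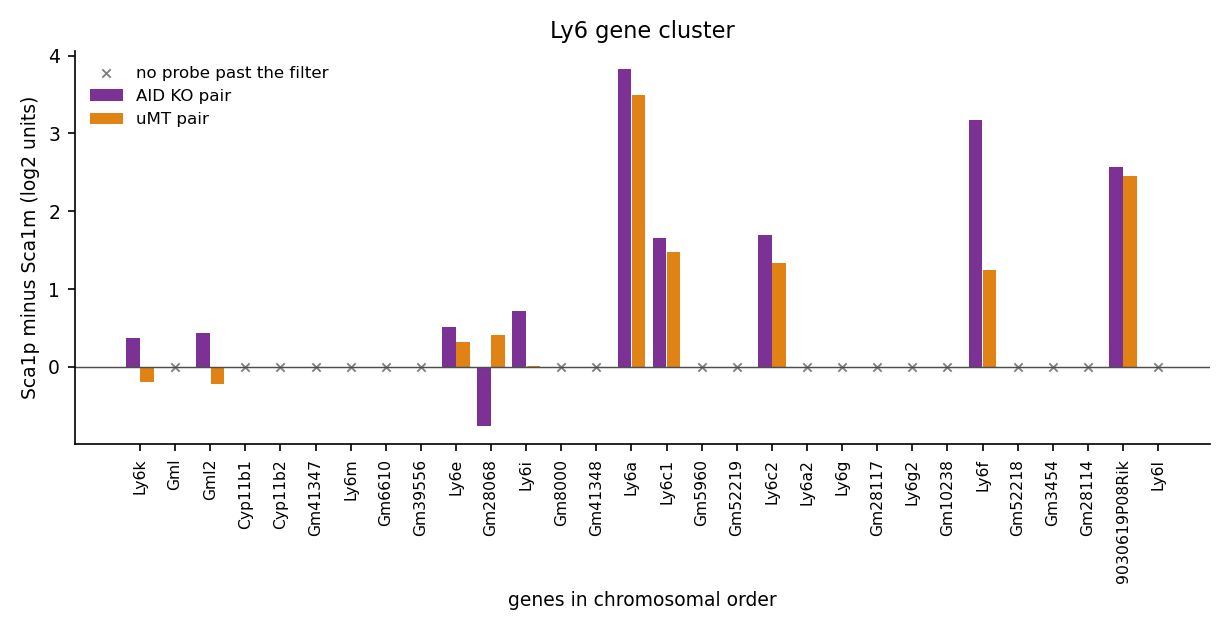
Sca1p minus Sca1m difference (log2 units, vertical axis) for the 30 annotated genes from Ly6k to Ly6l in chromosomal order, with bars for the AID KO pair and the uMT pair and crosses for genes without a probe past the filter. Ly6a, Ly6c1, Ly6c2, Ly6f and 9030619P08Rik are the 5 genes whose bars exceed 1 in both pairs. Ly6f was not well above background on Sca1m AID KO.

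Receptors and regulators tied to memory and type 1 effector function were read next. In a list of effector and memory CD8 genes, 17 of 38 tested members were higher in both pairs (44.7%, against 25.7% of all features) and 8 lower (21.1%, against 24.5%). The list's median difference was 0.15 in the AID KO pair and 0.12 in the uMT pair, against 0.02 and -0.01 for all features, and Cxcr3 was its only member past the threshold. The median over both pairs was 0.08, against 0.002 for all features. With quantile normalization it was 0.03, against -0.01 for all features. Ly6c2, given above with the Ly6 family, is also on this list. Tbx21, which encodes T-bet, the lead transcription factor of type 1 responses, stood at -0.71 and -0.75 in Sca1p and at -1.31 and -1.30 in Sca1m (0.58 ± 0.09, adjusted p = 0.173). Eomes, the related T-box factor of memory CD8+ T cells, stood at 1.64 and 1.71 in Sca1p and at 0.83 and 0.87 in Sca1m (0.82 ± 0.14, adjusted p = 0.211). Both genes were higher in Sca1p in both pairs, as were 25.7% of all features.

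Further genes of the same list follow, with Ifngas1, which is not on it. Ifng, which encodes interferon-gamma, stood at -0.71 and -1.08 in Sca1p and at -1.80 and -1.69 in Sca1m (adjusted p = 0.289). Its non-coding neighbour Ifngas1 stood at -2.66 and -1.89 in Sca1p and at -4.31 and -4.13 in Sca1m (1.94 ± 0.23, adjusted p = 0.0899). Ccl5, a chemokine stored by memory CD8+ T cells, stood at 0.80 and 0.66 in Sca1p and at 0.13 and -0.11 in Sca1m (adjusted p = 0.211). These 3 genes were higher in Sca1p in both genotypes, as were 25.7% of all features. The natural killer receptor gene Klrk1 stood at -0.54 in Sca1p AID KO and at -2.72 in Sca1m AID KO. It was not well above background on the uMT arrays, at -5.97 in Sca1p and -6.97 in Sca1m. The test of Sca1p against Sca1m over both genotypes gave an adjusted p of 0.227.

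Other members of that list were lower in Sca1p or dim. Anxa2, an annexin that is high in effector and memory cells, stood at 0.16 and 0.18 in Sca1p and at 0.94 and 1.30 in Sca1m (-0.95 ± 0.14, adjusted p = 0.150). Lgals1, which encodes galectin-1, stood at 2.45 and 2.78 in Sca1p and at 2.97 and 3.50 in Sca1m (adjusted p = 0.337). Klrg1 and Cx3cr1, markers of effector cells, were not well above background in either fraction. Cd44, the marker used to define naive cells, stood at -2.07 and -1.46 in Sca1p and at -1.89 and -1.31 in Sca1m.

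Genes of the naive state did not separate the fractions as a group. Of 25 tested members, 5 were higher (20%) and 7 lower (28%) in Sca1p in both pairs, against 25.7% and 24.5% of all features. The medians were 0.05 and -0.04 in the AID KO and uMT pairs. Ccr7, Lef1, Tcf7 and Klf2 each differed by 0.10 or less in the fitted mean. The member with the lowest p was Il7r, the receptor for the survival cytokine IL-7, at 6.19 and 6.39 in Sca1p and 5.81 and 5.87 in Sca1m (0.45 ± 0.10, adjusted p = 0.294).

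**Figure D3:**
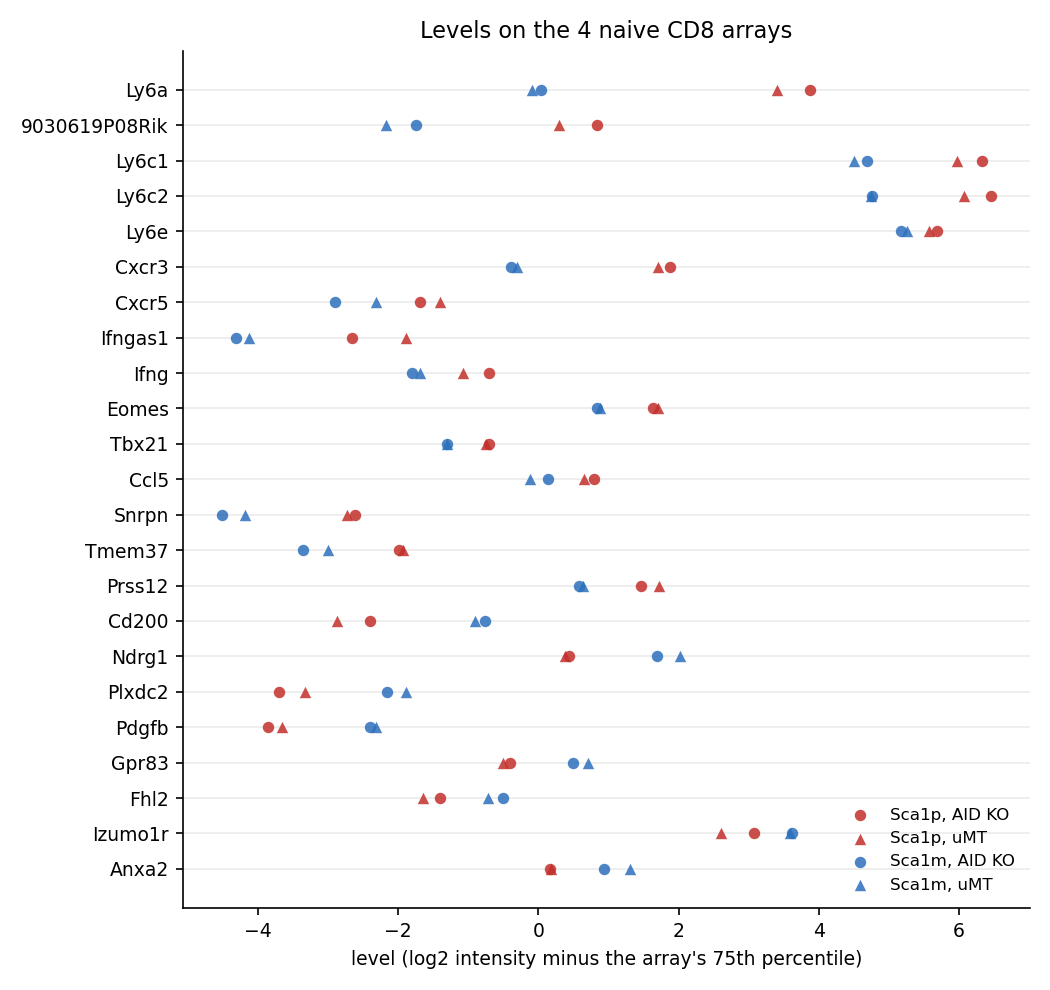
Level of 23 named genes (rows) on the 4 naive arrays, as log2 intensity minus the array's 75th percentile; red symbols are Sca1p and blue symbols Sca1m, circles AID KO and triangles uMT. In each row both red symbols lie on the same side of both blue symbols, with Ly6a, Cxcr3 and 9030619P08Rik to the right and Cd200, Ndrg1 and Pdgfb to the left. The 23 genes were picked for display.

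Of 24 tested members of the cytokine receptor list, 7 were higher (29.2%) and 9 lower (37.5%) in both pairs, and none passed the threshold. Over all features the shares were 25.7% and 24.5%. Those with the lowest p were higher in Sca1p. Il18r1 stood at 2.32 and 2.72 in Sca1p and at 1.82 and 1.88 in Sca1m (adjusted p = 0.273), and its partner chain Il18rap at -4.28 and -3.92 in Sca1p and, not well above background, at -4.99 and -5.08 in Sca1m (adjusted p = 0.187). Il12rb1, a chain of the IL-12 receptor, stood at 1.53 and 1.11 in Sca1p and at 0.71 and 0.71 in Sca1m (adjusted p = 0.407). Il10ra stood at 0.25 and -0.03 in Sca1p and at -0.59 and -0.51 in Sca1m (adjusted p = 0.347).

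Among 26 tested chemokine and trafficking receptors, 4 were higher (15.4%) and 7 lower (26.9%) in both pairs, against 25.7% and 24.5% of all features. Cxcr5, the receptor that guides cells to B cell follicles, stood at -1.70 and -1.41 in Sca1p and at -2.90 and -2.31 in Sca1m (1.06 ± 0.12, adjusted p = 0.0899). Itgae, the integrin chain CD103, stood at 3.51 and 3.12 in Sca1p and at 3.91 and 3.78 in Sca1m (adjusted p = 0.347). The gut homing receptor Ccr9 stood at 3.62 and 3.57 in Sca1p and at 3.92 and 4.12 in Sca1m (adjusted p = 0.417). Cxcr3 and Cxcr5 were higher in Sca1p in both pairs, and Itgae and Ccr9 were lower.

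The interferon lists leaned one way with small differences. On the type I interferon response list, 38 of 51 tested genes were higher in Sca1p in both pairs (74.5%, against 25.7% of all features) and 4 lower (7.84%, against 24.5%), with medians of 0.26 in the AID KO pair and 0.18 in the uMT pair. None had an unadjusted p under 0.05 in limma, where 8.4% of all features did. Oasl2, a member of the antiviral 2'-5' oligoadenylate synthetase family, had the widest gap among those named, at 1.62 and 1.21 in Sca1p and 0.68 and 0.06 in Sca1m (1.04 ± 0.71, adjusted p = 0.770). Ifi47, an interferon-inducible GTPase, stood at 5.83 and 5.47 in Sca1p and at 5.22 and 5.28 in Sca1m (0.40 ± 0.21, adjusted p = 0.694). Parp12 stood at -1.22 and -1.27 in Sca1p and at -1.75 and -1.73 in Sca1m (0.50 ± 0.25, adjusted p = 0.677). These 3 genes were among the 38 higher in both pairs, and their standard error, which pools the spread of all 12 arrays, was at least 0.21.

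Of 36 tested interferon-gamma response and antigen presentation genes, 28 were higher in both pairs (77.8%) and 1 lower (2.78%), with medians of 0.36 in the AID KO pair and 0.09 in the uMT pair. In 4 of the 36 limma gave an unadjusted p under 0.05, where 8.4% of all features did. Psmb8, a subunit of the immunoproteasome, stood at 5.03 and 4.87 in Sca1p and at 4.48 and 4.58 in Sca1m (0.42 ± 0.10, adjusted p = 0.353). The guanylate-binding protein Gbp5 stood at 1.55 and 1.70 in Sca1p and at 0.99 and 1.02 in Sca1m (0.62 ± 0.17, adjusted p = 0.417). Socs3, a feedback inhibitor of cytokine signalling, stood at 4.39 and 4.28 in Sca1p and at 3.83 and 3.79 in Sca1m (0.52 ± 0.17, adjusted p = 0.485). Gbp2 stood at 3.80 and 3.36 in Sca1p and at 3.07 and 3.01 in Sca1m (adjusted p = 0.549). The 18 tested interferon receptors and signalling genes were even, with 5 higher and 5 lower in both pairs (27.8% each).

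**Figure D4:**
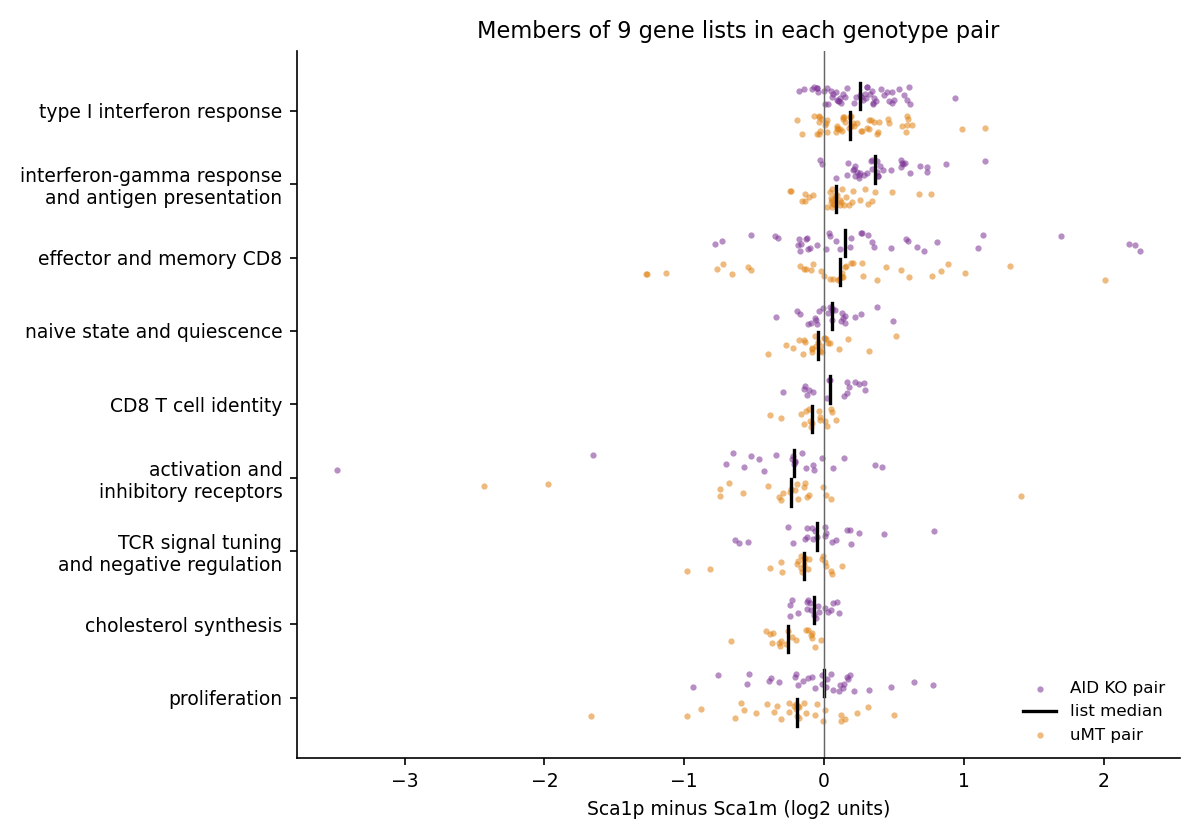
Sca1p minus Sca1m difference (log2 units, horizontal axis) of every tested member of 9 gene lists, purple for the AID KO pair and orange for the uMT pair, with black bars for the list medians. Members of the interferon lists lie mostly to the right of 0 and those of the activation and inhibitory receptor list mostly to the left, while the naive state and CD8 identity lists centre near 0.

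Activation and inhibitory receptors leaned toward Sca1m. Of 23 tested members, 18 were lower in Sca1p in both pairs (78.3%, against 24.5% of all features) and 2 higher, with medians of -0.22 in the AID KO pair and -0.24 in the uMT pair. Cd200, which encodes the ligand of an inhibitory receptor, stood at -2.41 and -2.87 in Sca1p and at -0.76 and -0.90 in Sca1m. The fractions were apart in both genotypes, 3.51-fold lower in Sca1p (-1.81 ± 0.16, adjusted p = 0.0731). Tnfrsf9, the costimulatory receptor 4-1BB, stood at -1.20 and -1.57 in Sca1p and at -0.74 and -0.82 in Sca1m (adjusted p = 0.268). Cd160 stood at -2.75 and -2.83 in Sca1p and at -2.05 and -2.25 in Sca1m (adjusted p = 0.317). Pdcd1, which encodes PD-1, was uneven, at -3.89 and -3.74 in Sca1p and at -3.37 and -1.31 in Sca1m (adjusted p = 0.478).

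Some single genes, which come from different lists or from none and were chosen after their values were seen, were lower in Sca1p in both pairs without passing the threshold. Ndrg1, known in mouse T cells as a factor of clonal anergy, stood at 0.44 and 0.39 in Sca1p and at 1.69 and 2.01 in Sca1m (-1.44 ± 0.13, adjusted p = 0.0814), a 2.71-fold gap. Izumo1r, the folate receptor 4 gene of regulatory and anergic T cells, stood at 3.08 and 2.61 in Sca1p and at 3.62 and 3.58 in Sca1m (-0.76 ± 0.13, adjusted p = 0.215). Gpr83, a receptor gene known from mouse regulatory T cells, stood at -0.41 and -0.51 in Sca1p and at 0.49 and 0.71 in Sca1m (-1.06 ± 0.13, adjusted p = 0.0977). Ikzf2, which encodes Helios, stood at -2.98 and -3.91 in Sca1p and at -2.15 and -2.13 in Sca1m (adjusted p = 0.201). Foxp3, the defining factor of regulatory T cells, stood at -3.26 and -3.05 in Sca1p and at -3.36 and -3.28 in Sca1m, slightly higher in Sca1p in both pairs. Of 23 tested genes that tune or dampen T cell receptor signals, 3 were higher (13%) and 10 lower (43.5%) in both pairs. Over all features these shares were 25.7% and 24.5%. Cd5, a surface measure of such tuning, stood at 5.39 and 5.31 in Sca1p and at 5.51 and 5.45 in Sca1m.

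The other bright genes at least 1 log2 unit apart in both pairs belong to no single list. Higher in Sca1p were the imprinted spliceosome gene Snrpn (1.67 ± 0.14, adjusted p = 0.0724), the melanin enzyme gene Dct (1.68 ± 0.34, adjusted p = 0.265), the cilium gene B9d1, the membrane protein gene Tmem37, the signalling regulator Rgs12, C1qtnf4, Itpripl2 and 1700055K11Rik, with differences between 1.03 and 1.68. Snrpn stood at -2.62 and -2.74 in Sca1p and at -4.52 and -4.18 in Sca1m, and its second probe differed by 1.37 and 0.68 in the same direction. Lower were the growth factor gene Pdgfb (-1.40 ± 0.12, adjusted p = 0.0724), the transmembrane protein gene Plxdc2 (-1.50 ± 0.12, adjusted p = 0.0724) and Arap3. Plxdc2 stood at -3.70 and -3.33 in Sca1p and at -2.15 and -1.89 in Sca1m, and Pdgfb at -3.86 and -3.66 in Sca1p and -2.40 and -2.32 in Sca1m. Just inside the minimum of 1 log2 unit was C1qtnf4, with 1.21 in the AID KO pair and 1.00 in the uMT pair. The neurotrypsin gene Prss12 was just outside, with 0.88 in the AID KO pair and 1.09 in the uMT pair.

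Metabolic and cycling genes showed small differences. Over all features, 25.7% were higher and 24.5% lower in Sca1p in both pairs. Of 19 tested cholesterol synthesis genes, none was higher and 13 were lower in Sca1p in both pairs (68.4%), with medians of -0.07 in the AID KO pair and -0.26 in the uMT pair. Hmgcs1, an early enzyme of that pathway, stood at 2.73 and 2.60 in Sca1p and at 2.97 and 2.98 in Sca1m (adjusted p = 0.524). Of 16 tested glycolysis genes, 1 was higher (6.25%) and 3 were lower (18.8%) in both pairs. Their medians were 0.16 in the AID KO pair and -0.07 in the uMT pair. The member with the lowest p was Hk2, which encodes the inducible hexokinase of activated cells, at -3.65 and -3.57 in Sca1p and at -3.04 and -2.64 in Sca1m (adjusted p = 0.179). Of 32 tested proliferation genes, 4 were higher (12.5%) and 13 lower (40.6%) in both pairs. Stmn1 stood at 0.41 and 0.72 in Sca1p and at 0.94 and 1.32 in Sca1m (adjusted p = 0.215).

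Of 62 tested markers of other cells, 30 were well above background on all 4 arrays and 18 on none. For the counts that follow, 25.7% of all features were higher and 24.5% lower in Sca1p in both pairs. Of 11 tested B cell genes, 4 were higher in Sca1p in both pairs and 1 lower, with medians of 0.61 in the AID KO pair and 0.23 in the uMT pair. Their summed level, which follows the brightest members, was 3.26 and 2.63 in Sca1p and 2.88 and 2.77 in Sca1m. Cd79a, a chain of the B cell receptor, stood at -2.61 in Sca1p AID KO and -5.88 in Sca1p uMT and was not well above background in Sca1m, at -6.78 and -7.08 (adjusted p = 0.378). The defining B cell gene Ms4a1 had no probe past the filter. Of 13 tested natural killer and innate-like genes, 8 were well above background in neither fraction, with 5 higher and 5 lower in both pairs and summed levels of 1.73 and 2.25 in Sca1p and 1.96 and 1.80 in Sca1m. Of 9 tested CD4 and regulatory T cell genes, 2 were higher and 5 lower, and Cd4 stood at 1.83 and 1.76 in Sca1p and at 1.43 and 1.51 in Sca1m. Macrophage, dendritic, neutrophil, stromal and erythroid lists had 3 to 6 tested members each. Of 5 neutrophil genes, 3 were higher and 1 lower in both pairs. Elane, the neutrophil elastase gene, stood at 0.14 and 0.33 in Sca1p and at -0.60 and -0.43 in Sca1m (adjusted p = 0.111). S100a8, a subunit of calprotectin, was not well above background in Sca1p, at -6.85 and -6.94, and stood at -4.20 and -4.29 in Sca1m (adjusted p = 0.227). The part of such cells in the differences above was not tested.

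For the same probes the 8 total CD8+ arrays, which stand on other slides and were not tested against the naive cells, gave 1.46 to 3.53 for Ly6a, 3.41 to 3.96 for Cxcr3 and 6.24 to 6.80 for Ly6c1. The Ly6a values there lie above both Sca1m arrays, and the highest of them lies between the 2 Sca1p arrays. The Cxcr3 values there exceed those of all 4 naive arrays.

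The Sca1p difference itself was compared between genotypes with an interaction term. In that test 23 features passed an adjusted p of 0.05 (0.0898%) and 2961 an unadjusted p of 0.05 (11.6%). The 4 naive arrays are then fitted exactly, so its spread comes from the total-cell arrays alone. For Ly6a the difference between the pairs was -0.34 ± 0.65 (adjusted p = 0.901).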

How the data were processed

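Cy3-labelled RNA of each sample was hybridised to 1 Agilent 1-colour mouse array. Per the file headers, the authors' deposited intensity values are processed signals of Agilent Feature Extraction 11.0.1.1, background-subtracted and not scaled between arrays. The deposited series matrix holds log2 values whose sorted values are nearly the same on all arrays of a slide. Here intensities were put on the log2 scale and each array's 75th percentile was subtracted. Control spots and outlier-flagged spots were removed, and a probe was kept if well above background on at least 2 of 12 arrays. Of 56605 probes, 32994 received a symbol through the RefSeq transcript table of GRCm38.p6, and 23611 have none here. The brightest probe stood for a gene. limma 3.58.1 in R 4.3.3 fitted all 12 arrays, with fraction and genotype terms in naive cells and site, slide and genotype terms in total cells, which left 4 residual degrees of freedom (3 with the interaction). P-values are two-sided and adjusted by Benjamini-Hochberg across every feature. The number of arrays limits the precision. On simulated arrays with 100 of 25599 features changed by 1 log2 unit and 100 by 3, the fit called 41 and 97 of them, and 7 unchanged ones. The simulated noise was normal, independent between arrays and drawn with the fit's own spreads. These counts therefore describe the fit under its own model, not the error rate in the real arrays.

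The genes named are the 15 largest rises and falls or, where fewer passed, those with the lowest p that moved alike in both pairs, Ly6a, the members of each gene list with the lowest p, and further list members within their list's counts. The genes at least 1 log2 unit apart in both pairs were named in full after their values were seen. The comparison, the gene lists and this rule were chosen with earlier results of these data known. Genotypes are given as labelled, and some genes, the targeted gene of the AID KO mice among them, are not reported here.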

Additional observations from a re-analysis of the deposited data

Results flagged for a closer look

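The 5 named genes with the lowest p in limma's interaction test between the 2 genotypes are given here, clone names left out. All 5 passed that test of the Sca1p minus Sca1m difference, and values are the uMT difference minus the AID KO difference. These calls are not stable: of the 23 features that passed, 0 to 2 passed without 1 total-cell array, and 2 in the series matrix. Each rests on 1 array per fraction and genotype, and the spread comes from the total-cell arrays alone. For Prickle4 the value was -7.36 (adjusted p = 0.0274), with -2.71 in Sca1p AID KO and -6.83 in Sca1p uMT, against -6.71 in Sca1m AID KO and -3.47 in Sca1m uMT. Terc, the RNA template of telomerase, gave -10.7 (adjusted p = 0.0432) and was bright on the Sca1m uMT array alone, at 4.83. Rpp38, a subunit of ribonuclease P, gave -5.66 (adjusted p = 0.0432) and also stood highest on the Sca1m uMT array, at 4.59. Slco1a1, an organic anion transporter, gave -4.72 (adjusted p = 0.0432), with -1.46 in Sca1m uMT. Entpd1, which encodes the ectoenzyme CD39, gave 3.54 (adjusted p = 0.0432), with -1.04 in Sca1m AID KO against -6.12 in Sca1m uMT. Prickle4 was well above background on 1 array of each fraction, and Terc, Slco1a1 and Entpd1 on 1 Sca1m array and no Sca1p array. For these genes the size sets a bright value against signal not well above background. None of the 5 passed the test of Sca1p against Sca1m over both genotypes.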

How the results depend on the processing

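The count of features past the threshold between Sca1p and Sca1m was small under every setting that used all 12 arrays, and its members changed. Against 4 features, normexp background correction on the median signal gave 11 (1 shared), the deposited series matrix 13 (1 shared), probes well above background on all 4 naive arrays 10 (1 shared), and no filter on dim probes 0, with 2828 at an unadjusted p under 0.05. Ly6a, Ly6c1, Cd200 and Ndrg1 passed in each of the first 3 of these settings. In limma on the 4 naive arrays alone 0 passed (1203 unadjusted), and 0 also without the genotype as a replicate block (1218 unadjusted). The labels give the naive arrays no replicate numbers, so genotype is the only pairing. Leaving out 1 array in turn gave between 0 and 176 features: 0 without any 1 total-cell array (1655 to 2473 unadjusted), 5 without Sca1p AID KO or Sca1m AID KO, and 176 without Sca1p uMT or Sca1m uMT. Each of these last 4 fits leaves a single genotype pair. Cxcr3 lost its call in 13 of the 21 settings that gave it a value, among them each of the 8 without 1 total-cell array (adjusted p 0.0829 to 0.127). Its direction was the same in all 21, but in many of them it could not change. Total-cell arrays do not enter the difference, which stayed at 2.13 without any 1 of them and on the naive arrays alone. Without 1 naive array the difference was that of the remaining pair, 2.01 or 2.26.

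Against 182 features at least 1 log2 unit apart the same way, there were 11 with normexp, 20 in the series matrix, 27 with probes well above background on all 4 naive arrays, and 392 without the filter. At a minimum of 0.5 log2 units there were 887, with 1183 opposite, and at 2 log2 units 21, with 9 opposite. Against 23 features, the interaction gave 14 with normexp, 36 with quantile normalization, 2 in the series matrix, 4 with the stricter filter, 729 without a filter and 0 to 2 without 1 total-cell array. It has no value without a naive array. For the single genes named, 1375 of the recomputed values kept direction and side of the threshold, 35 passed it newly, 43 lost it and 1 turned: Cd4 was -0.22 with the mean of its probes. Settings that only left out total-cell arrays could not change a direction, because the naive arrays have their own terms in the fit. The cause was not tested for any of these changes. Normexp on the mean signal was not run, and the median signal was chosen after seeing the data. Dim signal over background limits 135 of the 182.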
